A study of Homo sapiens with 3 samples.

Results

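The genes described here are 10 genes of glutathione metabolism and of the NRF2 antioxidant programme: CHAC1, CHAC2, GCLC, GCLM, GSS, GSR, TXNRD1, SRXN1, NQO1 and HMOX1. The 10 genes were picked with earlier results of these data known, and their probe sets are all those whose platform gene symbol is exactly one of these. They make 10 of the 19775 genes that a probe set of the array names singly, with 19 probe sets among them. RNA came from khES3 cells, an established line of human embryonic stem cells labelled undifferentiated, which were held for 5 hours in leucine-deprived medium, in lysine-deprived medium or in complete medium. Each medium had 1 Affymetrix array, so no value below has a replicate check and none has a p-value. The labels do not say whether the 3 cultures were run side by side.

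Glutathione is a small thiol that buffers the redox state of the cell. It is built from glutamate, cysteine and glycine, first by glutamate-cysteine ligase and then by glutathione synthetase, and is returned from its oxidised form by glutathione reductase. NRF2 is the transcription factor that raises many of these enzymes when electrophiles or oxidants disable its inhibitor KEAP1, by binding antioxidant response elements in their promoters and enhancers. CHAC1 stands apart in this set because it breaks glutathione down and is known as a target of ATF4, whose translation goes up under amino acid shortage.

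Promoter windows are given here as the sequence context of the genes whose values follow. The RefSeq promoter table of GRCh38.p14, which runs from 250 bases before to 50 bases after a gene's start, held 7 of the 10 genes; GSS, GSR and HMOX1 had no entry. The windows were searched on both strands for the antioxidant response element core TGACNNNGC, the composite site of ATF4 and C/EBP factors TGATGNAA and the ATF site TGACGNAA. In the lines below, 5′ to 3′ on each gene's own strand, capitals mark a match, and the 4 windows are the CHAC pair and both genes with an antioxidant element core.
CHAC1, chr15:40953221-40953520, plus strand: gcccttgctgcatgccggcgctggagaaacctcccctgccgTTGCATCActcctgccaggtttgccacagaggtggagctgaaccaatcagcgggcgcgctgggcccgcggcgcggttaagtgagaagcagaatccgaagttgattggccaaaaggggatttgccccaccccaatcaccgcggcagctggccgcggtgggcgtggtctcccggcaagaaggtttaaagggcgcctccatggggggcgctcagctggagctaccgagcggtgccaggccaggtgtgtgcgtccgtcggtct
CHAC2, chr2:53767533-53767832, plus strand: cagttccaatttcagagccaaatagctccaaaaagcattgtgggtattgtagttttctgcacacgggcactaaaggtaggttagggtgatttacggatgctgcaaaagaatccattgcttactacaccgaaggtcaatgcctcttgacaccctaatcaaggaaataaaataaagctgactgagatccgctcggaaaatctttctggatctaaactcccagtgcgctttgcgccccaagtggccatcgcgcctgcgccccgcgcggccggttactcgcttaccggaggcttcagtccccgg
GCLM, chr1:93909381-93909680, minus strand: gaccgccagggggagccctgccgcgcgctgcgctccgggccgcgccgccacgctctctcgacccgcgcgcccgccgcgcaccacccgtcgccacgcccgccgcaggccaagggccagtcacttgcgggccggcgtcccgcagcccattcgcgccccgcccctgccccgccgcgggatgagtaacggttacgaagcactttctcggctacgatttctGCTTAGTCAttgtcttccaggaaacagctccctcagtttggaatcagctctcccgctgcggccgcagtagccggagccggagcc
TXNRD1, chr12:104215529-104215828, plus strand: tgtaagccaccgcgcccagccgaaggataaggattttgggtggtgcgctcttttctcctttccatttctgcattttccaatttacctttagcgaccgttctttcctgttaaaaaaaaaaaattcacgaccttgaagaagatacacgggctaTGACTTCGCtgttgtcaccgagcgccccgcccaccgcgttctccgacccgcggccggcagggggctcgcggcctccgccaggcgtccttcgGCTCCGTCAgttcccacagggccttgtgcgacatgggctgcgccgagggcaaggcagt

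CHAC1 held 1 match to the ATF4 composite, TTGCATCA, which starts 209 bases before the gene's start and reads on the opposite strand. That composite lay in 3.62% of all 35116 promoters, the antioxidant core in 13.3% and the ATF site in 1.66%. The antioxidant core lay in 2 of the 7 promoters: once in GCLM, as GCTTAGTCA starting 34 bases before the start, and in in TXNRD1, as TGACTTCGC at 99 bases and GCTCCGTCA at 8 bases before the start shown. A second TXNRD1 start in the table also had 1 match to the core. No full match to these motifs was found in the windows of CHAC2, GCLC, SRXN1 and NQO1, which says nothing about partial matches or sites elsewhere in those genes.

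The values are signal intensities per probe set on a linear scale, as the authors deposited them. A floor at the 40th percentile of each array (56.7 for leucine-deprived, 62.4 for lysine-deprived and 54.6 for complete medium) stood in for detection calls, and differences are given in log2 of the floored signal, where 1 is a 2-fold difference. Of the 19 probe sets 17 passed a filter on mean level and were above the floor on all 3 arrays, and every one of the 10 genes had at least 1 of them. The other 2 were dim: the dimmest GCLC probe set with 51.9 in leucine-deprived, 21.2 in lysine-deprived and 36.2 in complete medium, and a second TXNRD1 probe set with 2.18, 9.50 and 55.0 in the same order. A gene is represented by its brightest probe set, and the others are given beside it.

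The cells carried their label: 10 of 12 markers of undifferentiated stem cells could be read by a probe set naming 1 gene, and all 10 lay above the floor on all arrays, with summed signals of 245172 in leucine-deprived, 240074 in lysine-deprived and 228744 in complete medium. TDGF1 and POU5F1 were not analysed here. Of 10 fibroblast and feeder cell markers, 5 were above the floor on every array (COL1A1, COL1A2, THY1, POSTN and S100A4), with list sums of 26302 in leucine-deprived, 30467 in lysine-deprived and 29084 in complete medium. COL3A1, DCN, LUM, PDGFRB and FAP were at or below the floor on at least 1 array. The 3′ to 5′ signal ratio of ACTB, a sign of RNA quality, was 7.55 in leucine-deprived, 11.2 in lysine-deprived and 5.44 in complete medium, and that of GAPDH was 1.23, 1.25 and 1.08. The part of these differences in the results below was not tested.

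**Figure D1:**
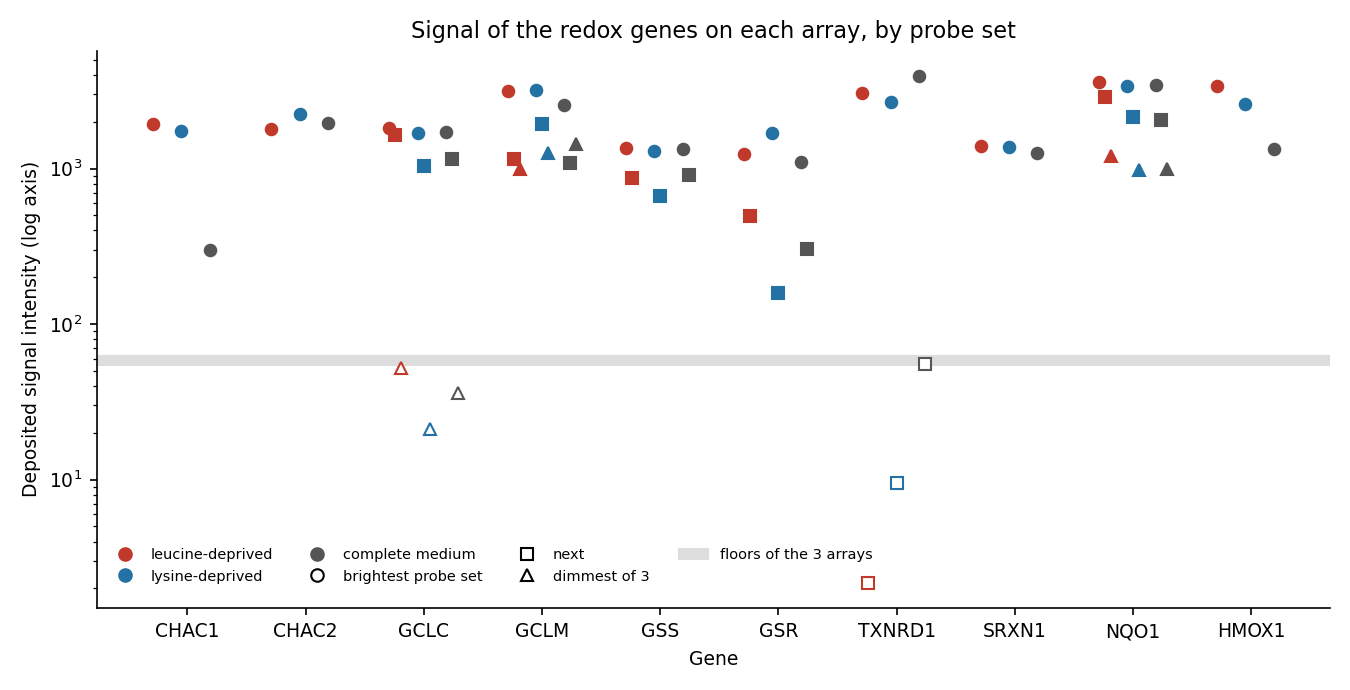
Deposited signal intensity (log axis) of each probe set of the 10 genes on the leucine-deprived, lysine-deprived and complete-medium arrays, 1 array each. Open symbols are the 2 probe sets that failed the level filter, the grey band spans the floors of the 3 arrays, and CHAC1 and HMOX1 are the genes whose complete-medium point lies clearly under both deprived points.

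After leucine removal 2 of the 10 genes were at least 2-fold higher than in complete medium and above the floor on both arrays, CHAC1 and HMOX1, against 2.52% of all 12961 genes with a probe set above the level filter. None of the 10 was 2-fold lower, against 1.36% of all genes. After lysine removal 1 of the 10, CHAC1, was 2-fold higher, against 3.98% of all genes, and none was 2-fold lower, against 1.84%. The median difference over the 10 genes was 0.11 after leucine and 0.16 after lysine removal, beside 0.01 and 0.00 over all genes. In whole-culture RNA, fewer cells of a type and less RNA per cell cannot be told apart.

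CHAC1 encodes a gamma-glutamylcyclotransferase that cleaves glutathione into cysteinyl-glycine and 5-oxoproline. Its 1 probe set had a signal of 1930.3 in leucine-deprived, 1743 in lysine-deprived and 299 in complete medium. Both deprived arrays were far above the complete-medium array and close to each other. The signal was 6.46-fold higher after leucine removal, rank 6 of 12961 genes, and 5.83-fold higher after lysine removal, rank 12. CHAC1 rests on a single probe set, so no other probe set of the gene could be set beside it.

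CHAC2, the paralogue of CHAC1, encodes a slower, constitutive enzyme of the same activity. Its 1 probe set had 1799 in leucine-deprived, 2249.9 in lysine-deprived and 1968 in complete medium. The complete-medium value lies between both deprived ones, with differences of -0.13 after leucine and 0.19 after lysine removal. The CHAC pair, which shares its activity, thus had differences of 2.69 (CHAC1) and -0.13 (CHAC2) on the leucine-deprived array.

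The synthesis enzymes showed no 2-fold difference on either array. GCLC, the catalytic subunit of glutamate-cysteine ligase, had 1828 in leucine-deprived, 1686 in lysine-deprived and 1725 in complete medium on its brightest probe set. Its second had 1636, 1046 and 1161 in the same order. Both probe sets were highest on the leucine-deprived array and lowest on the lysine-deprived one, with differences of 0.08 and 0.49 after leucine and -0.03 and -0.15 after lysine removal. GCLM, the modifier subunit of the same ligase, had 3152 in leucine-deprived, 3207 in lysine-deprived and 2559.95 in complete medium on its brightest probe set. Its second read 1160.4, 1925 and 1085, and its dimmest 988, 1269 and 1446. The 3 GCLM probe sets went apart: after leucine removal they differed by 0.30, 0.10 and -0.55, and after lysine removal by 0.32, 0.83 and -0.19.

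GSS, glutathione synthetase, adds glycine in the second step. Its brightest probe set had 1364 in leucine-deprived, 1302 in lysine-deprived and 1343 in complete medium, which puts all 3 arrays within 0.07 log2 of each other. Its second probe set had 869, 669 and 907, with the lysine-deprived array lowest (-0.44 from complete medium).

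GSR, glutathione reductase, turns oxidised glutathione back with NADPH. Its brightest probe set had 1233 in leucine-deprived, 1699 in lysine-deprived and 1108 in complete medium, so the lysine-deprived array stood highest (0.62 from complete medium). Its second probe set had 493 in leucine-deprived, 159 in lysine-deprived and 305 in complete medium, so here the lysine-deprived array stood lowest (-0.94). The GSR probe sets therefore give opposite directions for lysine removal, 1.56 log2 apart, and the gene has no settled difference there. After leucine removal both were above 0, at 0.15 and 0.69.

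The thioredoxin branch works beside glutathione, and the level of its NRF2-linked members differed by less than 2-fold. TXNRD1, the cytosolic thioredoxin reductase, had 3055 in leucine-deprived, 2668 in lysine-deprived and 3935 in complete medium on its brightest probe set. It was lower on both deprived arrays, by -0.37 after leucine and -0.56 after lysine removal. These were the lowest differences among the brightest probe sets of the 10 genes. SRXN1, sulfiredoxin, repairs overoxidised peroxiredoxins. Its 1 probe set had 1402 in leucine-deprived, 1380.2 in lysine-deprived and 1266 in complete medium, differences of 0.15 and 0.12.

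NQO1, a quinone reductase and a widely used readout of NRF2, is read by 3 probe sets, each with the suffix that marks probes shared between transcripts. The brightest had 3631 in leucine-deprived, 3399 in lysine-deprived and 3445 in complete medium. The second had 2887, 2147 and 2053, and the third 1209, 986 and 989.5, in the same order. The leucine-deprived array was highest on all 3 probe sets (0.08, 0.49 and 0.29 from complete medium), and the lysine-deprived array lay within 0.07 log2 of complete medium on each (-0.02, 0.06 and -0.00).

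HMOX1, heme oxygenase, breaks down heme and is repressed by BACH1 as well as induced by NRF2. Its 1 probe set had 3393 in leucine-deprived, 2589.8 in lysine-deprived and 1340.1 in complete medium. Both deprived arrays were above complete medium, with the leucine-deprived one higher. The signal was 2.53-fold higher after leucine removal, rank 214 of 12961 genes, and 1.93-fold higher after lysine removal, rank 879. The lysine value (0.95) lies just outside the 2-fold threshold of 1, and no other gene of the 10 came closer to it on its brightest probe set.

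**Figure D2:**
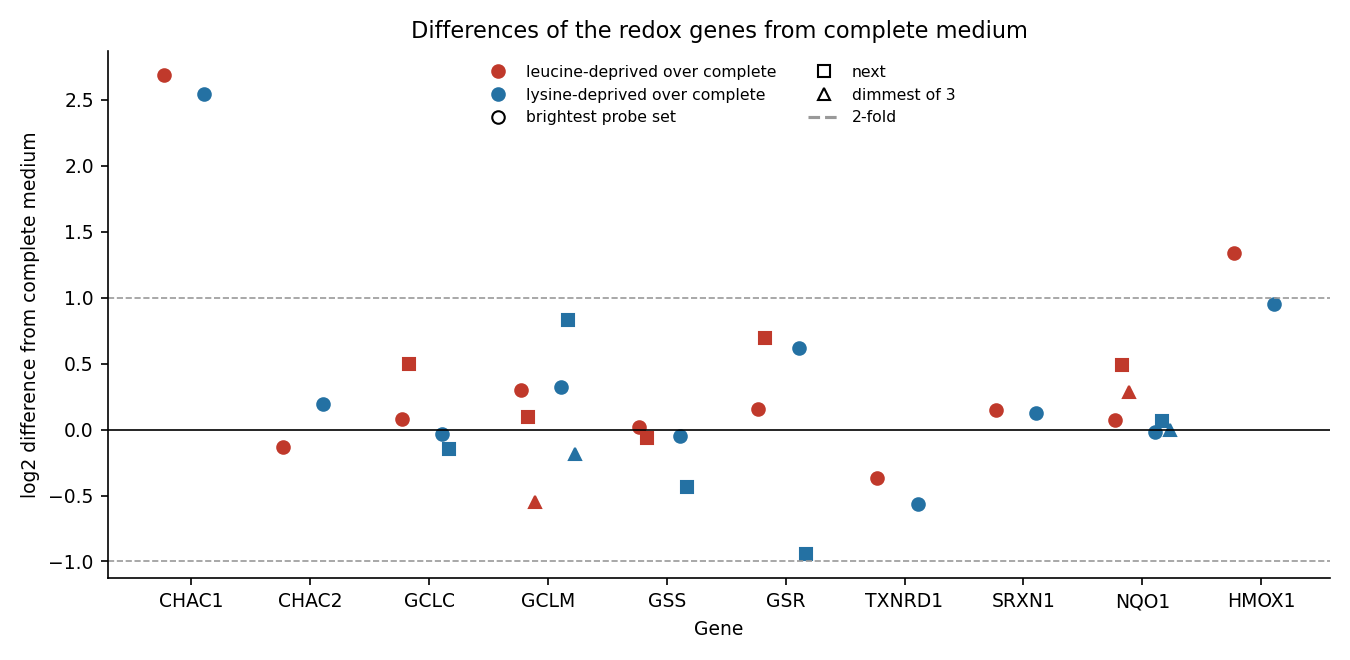
Log2 difference from complete medium for the 17 probe sets above the level filter, leucine-deprived left of lysine-deprived for each gene, symbols ordering the probe sets of a gene by level, dashed lines at 2-fold. CHAC1 lies at 2.69 and 2.54 and HMOX1 at 1.34 and 0.95, while the probe sets of GCLM and GSR spread over both sides of 0.

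The spread between probe sets of the same gene is the only error that 3 single arrays give, and it leaves out the spread between cultures. Over 5981 genes its SD was 0.49 for leucine removal, 0.57 for lysine removal and 0.58 between the deprived arrays. Over the 1546 genes whose probe sets all lay above the median level of those kept it was 0.23, 0.33 and 0.32. Among the 12 probe sets of GCLC, GCLM, GSS, GSR and NQO1 it was 0.32, 0.51 and 0.62. CHAC1 lay 2.69 and 2.54 from complete medium and HMOX1 1.34 and 0.95, against those SDs of 0.49 and 0.57. For the other 8 genes the brightest probe set differed by less than 0.5 after leucine removal, where 76.6% of all genes did, and after lysine removal 6 of the 10 genes did, against 68.7% of all genes.

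**Figure D3:**
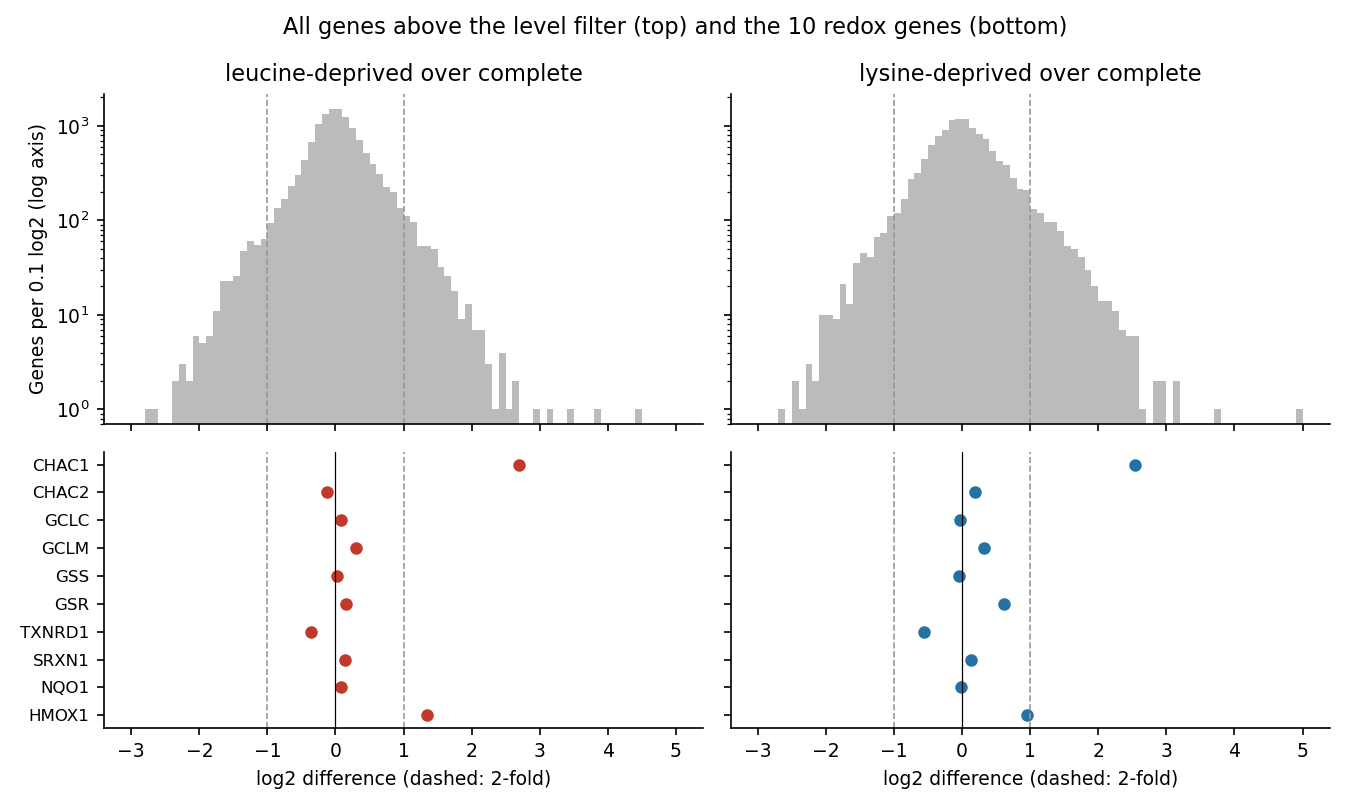
Histograms of the log2 difference from complete medium over 12961 genes (top, log count axis) and the 10 genes on their brightest probe set (bottom), leucine-deprived left and lysine-deprived right. CHAC1 sits in the far right tail of both panels, HMOX1 at 1.34 and 0.95, and the others between -0.56 and 0.62, in the body of the distribution.

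Set against each other, the deprived arrays differed by less than 2-fold for each of the 10 genes. None was 2-fold higher on the leucine-deprived than on the lysine-deprived array, where 1.82% of all genes were, and none was 2-fold lower, where 2.64% were. CHAC1 had a difference of 0.15 and HMOX1 0.39. The most negative was GSR at -0.46 on its brightest probe set, while its second probe set was 3.11-fold higher on the leucine-deprived array. GCLM lay at -0.02 on its brightest probe set and at -0.73 and -0.36 on the others.

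By the smallest Euclidean distance over the pair of differences from complete medium, the genes nearest to CHAC1 among 11913 genes above the floor on all 3 arrays were TAC1 (distance 0.22), TSC22D3 (0.24) and STC2 (0.40). TAC1 encodes the substance P precursor, TSC22D3 a glucocorticoid-induced leucine zipper protein and STC2 a secreted glycoprotein. TAC1 had 1200.4 in leucine-deprived, 1241 in lysine-deprived and 216 in complete medium. Nearest to HMOX1 were TRAV12-2 (0.06), GNB3 (0.08) and NFKBIB (0.08), which were dim, with complete-medium signals of 72.0, 65.0 and 108. Both differences share the complete-medium array, and 3 arrays give few ways for patterns to differ.

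Genes of cystine and cysteine supply lay above complete medium in 7 of 8 cases after leucine and 5 of 8 after lysine removal. Of all genes 51.7% and 50.5% did. Of the 8 genes, 3 were at least 2-fold higher after leucine and 4 after lysine removal, against 2.52% and 3.98% of all genes. Under the alternatives in processing these counts ran from 2 to 3 and from 3 to 4. None was 2-fold lower, and the medians were 0.89 and 0.95. SLC7A11, the cystine carrier that is a target of both NRF2 and ATF4, had 13567 in leucine-deprived, 14192 in lysine-deprived and 3089 in complete medium. Its differences were 2.13 and 2.20, with other probe sets between 1.33 and 2.09 after leucine and between 0.10 and 2.05 after lysine removal. CTH, which makes cysteine from cystathionine, was higher by 1.21 and 1.36, with its other probe set at 1.37 and 0.78, and SLC1A4, a neutral amino acid carrier, by 1.44 and 1.39, with its other probe sets at 0.12 to 0.96 and 0.86 to 1.10.

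Glutathione turnover enzymes other than the CHAC pair had a median of -0.01 over 7 genes after leucine and 0.30 after lysine removal. These medians were -0.14 and 0.05 with the arrays centred on their medians, and 1.16 and 0.16 over the 3 genes read without shared probe sets. OPLAH, which opens the 5-oxoproline ring, had differences of 0.09 and 0.56, and GGT7, a gamma-glutamyltransferase family gene, 0.18 and 0.12, against -0.64 and -1.16 on its other probe set. CNDP2, a dipeptidase that cleaves cysteinyl-glycine, had -0.24 and 0.30, with its other probe sets at 1.16 to 1.36 after leucine and 0.16 to 0.84 after lysine removal. ANPEP and GGT1, dim genes named after their values were seen, had the list's larger differences. ANPEP, an aminopeptidase gene, was the 1 gene of the 7 counted as 2-fold higher after lysine removal (1.05), against 3.98% of all genes. It lay below the floor on the leucine-deprived array. The list's count after lysine removal was 0 under median centring, quantile normalization and cyclic loess. That count was also 0 with a floor at the 60th percentile, a level filter at the 70th percentile, or shared probe sets left out. Under the other alternatives it was 1 or 2, which does not show that ANPEP was the gene counted. GGT1, a gamma-glutamyltransferase gene, had 146 in leucine-deprived, 127 in lysine-deprived and 44.6 in complete medium. Its floored differences were 1.42 and 1.21, not counted because complete medium lay below the floor; under a lower floor (20th percentile) the list had 1 gene 2-fold higher after leucine and 2 after lysine removal.

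NRF2 and its regulators had 14 of 15 genes above 0 on the leucine-deprived array (51.7% of all genes were), with a median of 0.34. Of the 15 genes, 2 were 2-fold higher there, against 2.52% of all genes. On the lysine-deprived array 10 of 15 lay above 0 (50.5% of all genes did), and the median was 0.14. None was past 2-fold there, against 3.98% of all genes higher and 1.84% lower, so a count of 0 in 15 says little. With the arrays centred on their medians the lysine median turned to -0.11 (6 of 15 above 0), and the leucine median was 0.21 (12 of 15). Without shared probe sets 10 of these genes could be read, and the medians were 0.13 (6 of 10 above 0) and -0.06 (4 of 10). None of the 10 was past 2-fold, but NFE2L1 and BACH2, the 2 genes counted after leucine removal, were not among them. That 0 is therefore no check of the 2. NFE2L2, which encodes NRF2, had 3462 in leucine-deprived, 3909.5 in lysine-deprived and 2166 in complete medium, differences of 0.68 and 0.85 with its other probe set at 1.35 and 0.61. NFE2L1, its relative that controls proteasome genes, was higher by 1.14 and 0.93, with its other probe sets at 0.74 to 1.01 and 0.82 to 0.99, and BACH2 by 1.19 and 0.85 on a dim probe set. KEAP1 had 0.06 and -0.11 and BACH1 0.33 and -0.01.

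Of 16 other NRF2 targets 0 were 2-fold higher or lower on either array by their brightest probe set. The medians were 0.02 after leucine and -0.07 after lysine removal. Of all genes 2.52% and 3.98% were 2-fold higher and 1.36% and 1.84% lower, so a count of 0 in 16 says little. Under median centring 1 was lower after lysine removal (median -0.32), and without a level filter 1 of 20 was higher after leucine removal. Other probe sets of NQO2 (1.53 and 2.08) and SLC48A1 (-0.17 and -1.42), named after their values were seen, lay further out. AKR1C2, an aldo-keto reductase whose family members are near-identical in sequence, had 0.91 and -0.04 and its other probe set 0.05 and 0.21. CBR1, a carbonyl reductase, had -0.59 and -0.88, and the export pump ABCC2 -0.85 and -0.61. Of 10 heme and iron genes, which include the next step after HMOX1, none was past 2-fold on its brightest probe set. Without shared probe sets 1 of 8 was 2-fold lower after leucine removal. HMOX2, named after its values were seen, had 0.00 and -0.00, with its other probe set at -1.04 and -0.81. BLVRA, which reduces the biliverdin that HMOX1 makes, had -0.13 and -0.56, with its other probe sets at -0.02 to 0.11 and -0.81 to -0.64. CPOX of heme synthesis had -0.23 and -0.53, and the transferrin receptor TFRC -0.69 and -0.43, with its other probe set at -0.66 and -0.73.

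The ATF4 arm to which CHAC1 belongs had the highest medians of the 9 lists. The list was chosen with earlier results of these data known, so its rank describes the list and is no independent support. Of its 12 other genes 9 were at least 2-fold higher after leucine and 10 after lysine removal, against 2.52% and 3.98% of all genes. None was lower, and the medians were 1.42 and 1.38. Without probe sets shared between transcripts, 7 of the 12 could be read, and 5 and 4 of them were 2-fold higher. TRIB3, a pseudokinase gene, lay at 3.80 and 3.75 with its other probe set at 1.75 and 0.55, DDIT3, which encodes CHOP, at 3.15 and 3.12, and DDIT4 at 2.91 and 2.93. ATF4 itself lay at 0.62 and 0.80.

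**Figure D4:**
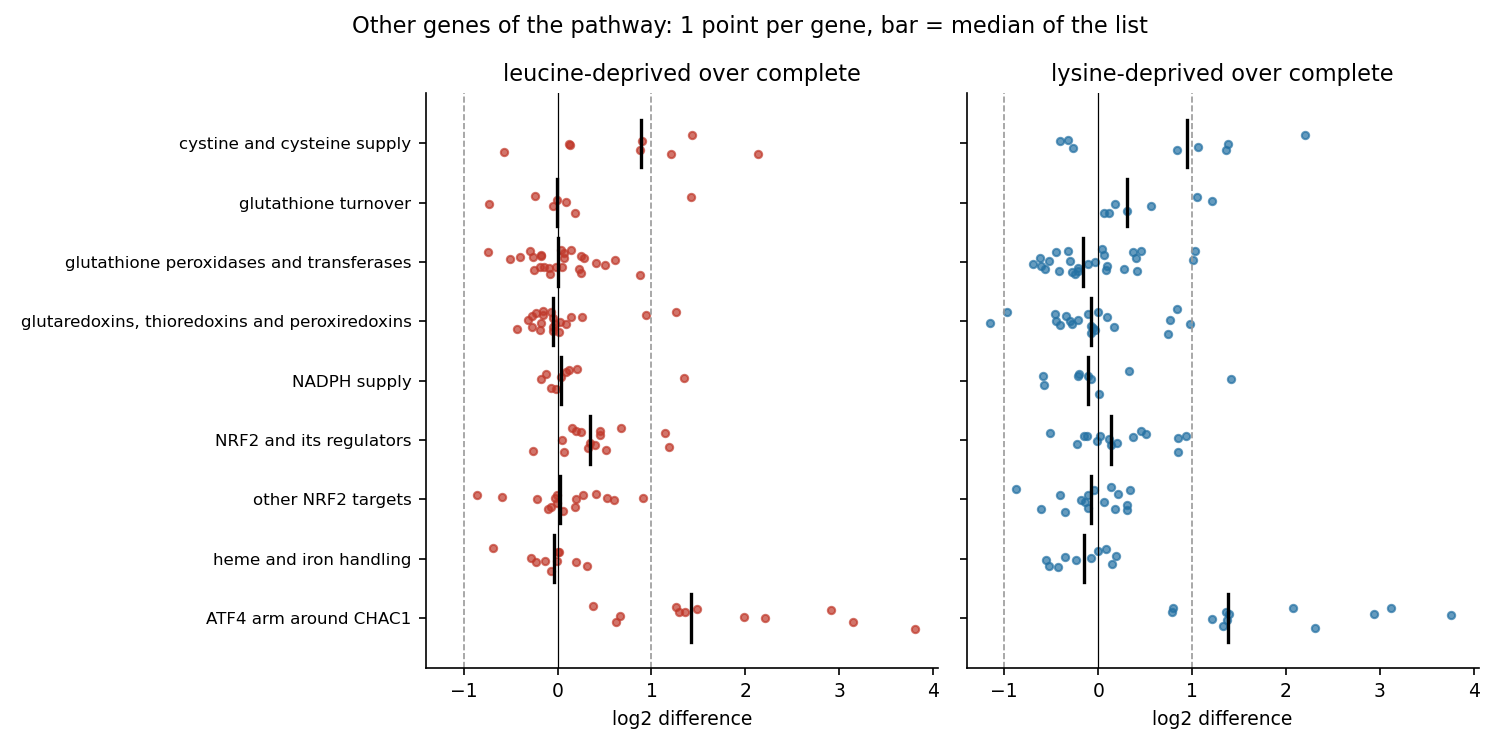
Log2 difference from complete medium for the other genes of the pathway by list, 1 point per gene on its brightest probe set, black bars at list medians, dashed lines at 2-fold, leucine-deprived left and lysine-deprived right, including genes at the floor on 1 array, which were not counted as 2-fold different. The ATF4 arm (medians 1.42 and 1.38) and cystine supply (0.89 and 0.95) lie to the right, and the other NRF2 targets centre near 0 (0.02 and -0.07).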

How the data were processed

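Total RNA from 3 khES3 cultures was hybridised, per the labels, to 1 array each. The authors deposited 1 linear intensity for each probe set, which MAS5 produced per the submitters' processing notes; no source used here gives its version or settings. The 2% trimmed mean of every array was 500.1, so the arrays had been scaled to a common mean, which removes differences in total mRNA. No per-sample columns were left unused.

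A floor at each array's 40th percentile was set before taking log2 of the deposited intensity. Of 41091 probe sets naming 1 gene in the platform annotation, 23055 had a mean log2 at or above the median over all probe sets, and a gene (12961) took its brightest one. A 2-fold difference was counted where both arrays lay above the floor. No test between groups was possible with 1 array each. Beside the 10 members, up to 3 genes per pathway list with the largest mean absolute difference, among those above the floor on all 3 arrays, were named, plus NFE2L2, KEAP1, BACH1, ATF4 and SLC7A11, and for members past 2-fold the 3 nearest genes. Members and lists were chosen with earlier results of these data known. The calculation was tested on simulated data. Alternatives were 3 normalizations, floors at the 20th and 60th percentile, log2(value + 32), a level filter at the 70th percentile or none, averaging a gene's probe sets, leaving out shared probe sets, and thresholds of 1.5- and 3-fold. Software was Python 3.11.15, numpy 2.4.6, pandas 2.3.3, R 4.3.3 and, for the normalization alternatives, limma 3.58.1. Precision is limited by having 3 arrays.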

Additional observations from a re-analysis of the deposited data

How the results depend on the processing

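With the threshold at 3-fold 1 gene (CHAC1) was higher after leucine removal, against 0.32% of all genes. At 1.5-fold 3 (CHAC1, GSR and HMOX1) were higher after lysine removal, against 12.5% of all genes. GSR was counted there on its brightest probe set, while its second lay at -0.94. The threshold itself sets both counts. Under the 10 other alternatives the counts of members past 2-fold were as reported, with 9 members where shared probe sets were left out (NQO1 has no other). CHAC1 ran from 2.56 to 2.69 after leucine and 2.30 to 2.56 after lysine removal, and HMOX1 from 1.21 to 1.34 and 0.70 to 0.98. TXNRD1 ran from -0.50 to -0.35 and -0.81 to -0.53. The median over members ran from -0.02 to 0.22 after leucine removal, from -0.09 to 0.19 after lysine removal and from 0.05 to 0.21 between the deprived arrays. Of 297 recomputed gene values 2 moved by more than the SD between probe sets, both of GSR with the mean of its probe sets: -0.16 after lysine removal and 0.59 between the deprived arrays, where the second probe set's opposite value enters. Centring on the median shifted the median of all genes to -0.12 (leucine) and -0.24 (lysine), without a level filter it was 0.19 after lysine removal, and 0.14 under a floor at the 60th percentile. Counts of all genes past 2-fold ran from 101 to 532 higher and 35 to 333 lower after leucine removal, against 327 and 176, and from 184 to 759 and 94 to 584 after lysine removal, against 516 and 239. Between the deprived arrays they ran from 74 to 481 higher and 71 to 564 lower, against 236 and 342. The higher share of these calls was 43.4% to 74.3%, against 65.01%, after leucine removal, 30.7% to 70.05%, against 68.3%, after lysine removal, and 35.3% to 59.2%, against 40.8%, between the deprived arrays. With 1 array per medium no replicate could be left out.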

Other observations

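Glutathione-using enzymes and the thioredoxin system outside the 10 genes were close to complete medium in most cases. Of 26 glutathione peroxidases and transferases none was 2-fold higher or lower after leucine removal, against 2.52% and 1.36% of all genes. With a gene's probe sets averaged 1 was 2-fold higher there, and without shared probe sets 1 of 19 was 2-fold lower. After lysine removal 2, GPX8 and PTGES, were 2-fold higher, against 3.98% of all genes. The medians were 0.01 after leucine and -0.16 after lysine removal. After lysine removal the count was 0 under median centring, with a median of -0.41, and 1 under cyclic loess, a floor at the 60th percentile, log2(value + 32), a level filter at the 70th percentile and without shared probe sets. GPX8, a peroxidase of the endoplasmic reticulum, had 4763 in leucine-deprived, 5323 in lysine-deprived and 2596 in complete medium, differences of 0.88 and 1.04, and its other probe set had 1.38 and 1.66. GSTM3, a glutathione transferase, had -0.74 and -0.61. PTGES had 0.24 and 1.01 on a dim probe set.

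Of 21 glutaredoxin, thioredoxin, peroxiredoxin and related genes 1, TXNIP, was 2-fold higher after leucine removal, against 2.52% of all genes. Without shared probe sets 17 of them could be read and 0 were 2-fold higher there, but TXNIP was not among the 17. Under the settings that read it, TXNIP ran from 1.13 to 1.27 after leucine removal. After lysine removal 1, MSRB3, was 2-fold lower, against 1.84% of all genes (-1.15, against 0.21 on its other probe set, chosen after its values were seen). TXNIP, which binds thioredoxin, had 1.26 and 0.98, with its other probe sets at 0.79 to 1.42 and 0.33 to 1.001. SOD2, the mitochondrial superoxide dismutase, had 828 in leucine-deprived, 769 in lysine-deprived and 429.7 in complete medium, differences of 0.95 and 0.84. CAT, catalase, had 911, 626 and 1224 in the same order, differences of -0.43 and -0.97, with its other probe set at -0.10 and -1.09. Among 9 NADPH-supplying genes only MTHFD2, a mitochondrial folate enzyme and known ATF4 target, was past 2-fold (1.35 and 1.41, with its other probe set at 1.16 and 0.99). MTHFD1 had 0.04 and -0.59, and PGD -0.18 and -0.57 with its other probe set at 0.91 and 1.36.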
